A study of Mus musculus with 8 samples.

Results

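The nuclear RNA polymerases I, II and III are built from a common plan: a catalytic core of a pair of large subunits, an assembly platform of alpha-like subunits, a stalk, and a set of small subunits that all 3 enzymes share. The genes described here are those whose symbol begins with Polr1, Polr2 or Polr3 followed by a letter, pseudogenes left out, together with Polrmt, the separate single-subunit polymerase of mitochondria. The rule reads symbols and no measured value, and it takes 29 of the 37310 genes in the expression table. By enzyme they fall into 3 subunits of Pol I alone, 2 shared by Pol I and Pol III, 5 shared by all 3 enzymes, 7 of Pol II alone, 1 protein that associates with Pol II (Polr2m), 10 of Pol III alone, and Polrmt. Another 4 subunits stand in the table under symbols that this choice does not take: Twistnb, Cd3eap and Znrd1, now also called Polr1f, Polr1g and Polr1h, and Crcp of Pol III. They are given beside their enzymes and are not counted among the 29.

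Pol I makes the precursor of the large ribosomal RNAs, Pol II makes mRNA and many small nuclear RNAs, and Pol III makes transfer RNAs, 5S ribosomal RNA and other short RNAs. In the mouse, the embryo's own genome is activated mainly at the 2-cell stage, when mRNA stored in the oocyte is broken down and new transcripts take over, and ribosomal RNA synthesis starts again at about the same time. The values below are of the mRNAs that encode the polymerases, not of the RNAs the polymerases make, of which most carry no poly(A) tail.

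Fertilized mouse eggs were cultured in G1 medium with 6 µM triclocarban (TCC), an antibacterial compound of soaps, or with the same volume of its solvent DMSO (control), and poly(A) RNA of 2-cell embryos was sequenced in 4 libraries per group. The labels give no strain, sex, number of embryos per library, hour of collection or batch. Nothing in them ties a library to a culture or animal of its own, so a p-value here covers the spread among the libraries at hand, and that spread may be technical. Values are FPKM, that is, fragments mapped to a gene relative to the length of its transcript and to all mapped fragments of the library. In such bulk RNA, fewer embryos or cells at a stage and less RNA per cell cannot be told apart. Sums of FPKM were 477882 to 563651 in TCC libraries and 533941 to 605986 in control libraries, and 11788 to 11957 genes reached 1 FPKM in TCC libraries, against 12828 to 13541 in control libraries. All 8 of the 2-cell stage markers in the table, Zscan4d and Zfp352 among them, passed the filter on low values. Of these, 3 were called higher, 3 lower and 2 neither. For this and the marker counts that follow, the shares over all tested genes were 11.3% called higher and 30.8% called lower. Summed, they had 228.4 to 741.4 FPKM in TCC libraries and 467.4 to 620.7 FPKM in control libraries. Duxf3, 1 of the 3 higher, had 1.28 to 1.53 FPKM with TCC and 0 to 0.599 FPKM in controls. It thus passed the filter through the TCC libraries alone. The 8 oocyte markers summed to 4403 to 5355 FPKM with TCC and 1685 to 3616 FPKM in controls, and 5 of them were called higher and 1 lower. Most of this sum was Oosp1, at 2344 to 3050 FPKM with TCC and 1172 to 2329 FPKM in controls. The 10 cumulus and granulosa cell markers summed to 9.29 to 19.3 FPKM with TCC and 22.7 to 31.8 FPKM in controls, with Amh at 0 throughout. Of the 4 past the filter, 2 were called higher (Fshr and Cyp19a1) and 2 lower (Amhr2 and Tnfaip6). The sum turned on Amhr2, with 1.23 ± 0.916 FPKM with TCC and 21.4 ± 4.68 FPKM in controls (SD, n = 4). Tnfaip6 had 0.230 to 0.494 FPKM with TCC and 1.53 to 5.01 FPKM in controls, so it passed the filter through the controls alone. The 8 sperm markers summed to 7.23 to 10.5 FPKM with TCC and 1.12 to 5.90 FPKM in controls, with only Prm2 past the filter and Smcp at 0 throughout. The part of these marker differences in the results below was not tested. The controls did not form 1 tight group: on the first principal component, with 69.1% of the variance, controls 1 and 2 scored 27.8 and 36.5 and controls 3 and 4 scored 101.7 and 97.8, while the TCC libraries scored -69.6 to -62.7.

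Most polymerase subunit mRNAs were lower in TCC embryos than in controls. Of the 29 genes, all of which passed the filter (1 FPKM or more in 4 or more libraries of the 8), 21 were lower and 2 were higher with TCC by limma on log2(FPKM + 1), at a Benjamini-Hochberg adjusted p under 0.05 over the 12941 genes tested. Across all tested genes, 30.8% were called lower and 11.3% higher, 42.1% in either direction, so the 72.4% of subunit genes called lower stood above the background share. The 2 genes called higher were Polr2g and Polr3gl, and the 6 that did not pass were Polr2c, Polr2j, Polr3a, Polr3c, Polr3f and Polrmt. All 4 TCC libraries lay below all 4 controls for 22 subunit genes and above them for 2, against 30.0% and 10.2% of all tested genes. The median change of the 29 genes was -1.54 on the log2(FPKM + 1) scale, beside -0.19 for all tested genes, and 18 genes had a change of -1 or lower. Over all genes tested 1466 were higher and 3981 lower, a split that became 2637 and 3187 with libraries scaled by the median of ratios and 2803 and 2947 with quantile normalization. These scalings moved the median of all genes up by 0.25 and 0.32. Relative to that median, the subunit genes stood at -1.34 with the values as deposited, and at -1.29 and -1.31 under the 2 scalings. The number of all genes called higher was 971 without control 3 and 953 without control 4.

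**Figure D1:**
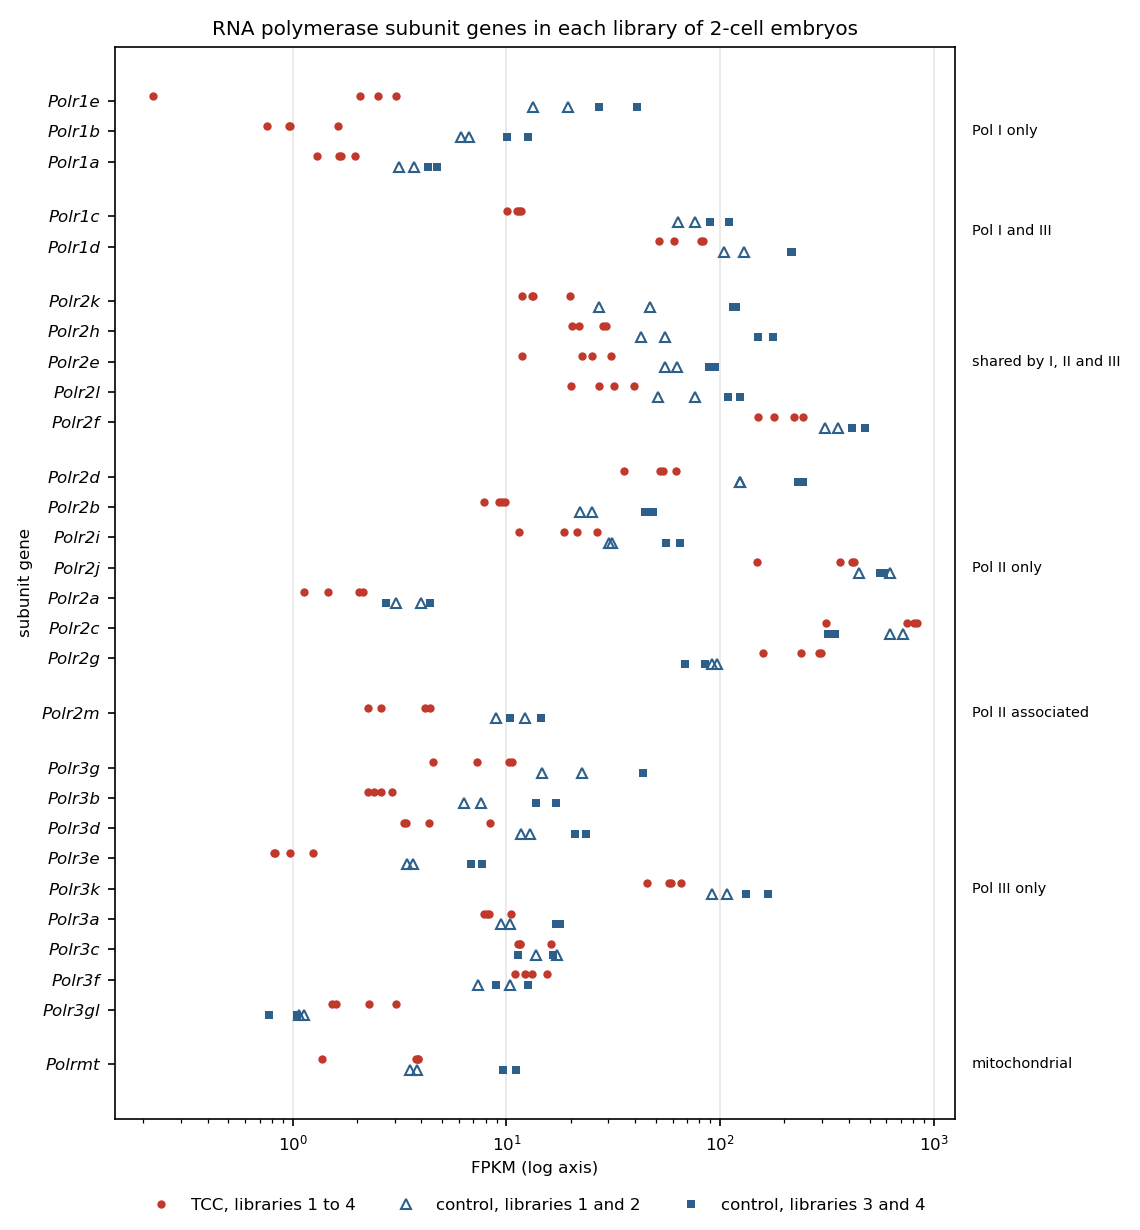
FPKM (log axis) of 28 polymerase subunit genes, 1 symbol per library, grouped by enzyme: red circles are the 4 TCC libraries, open triangles are controls 1 and 2 and filled squares are controls 3 and 4. Red circles lie left of all blue symbols for 21 genes and right of them for Polr2g and Polr3gl.

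Levels also differed between the pairs of control libraries. Controls 3 and 4 both lay above controls 1 and 2 for 21 of the 29 subunit genes, and for 19 of the 21 genes called lower, while this held for 30.9% of all tested genes. The opposite order was seen for Polr2c, Polr2g and Polr3gl. With controls 3 and 4 left out, 17 subunit genes were called lower, beside 3243 of all 12941 tested genes. The median change was -0.96, beside -0.30 for all tested genes. With controls 1 and 2 left out instead, 23 were called lower, beside 4213 of all tested genes, and the median was -1.65, beside -0.12 for all. The direction of these counts was thus the same against either pair, and the size was smaller against controls 1 and 2. Among the TCC libraries, library 2 was the lowest for 16 of the 29 genes and the highest for 4.

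The promoters of 4 subunit genes are shown because they belong to 2 members with steep falls (Polr1e, Polr1c) and to the pair of Pol III paralogues that moved in opposite directions (Polr3g, Polr3gl). Each window runs from 250 bases before to 50 bases after the RefSeq gene start on GRCm38.p6, 5′ to 3′ on the gene's strand, and capitals mark matches, on either strand, to an ETS core (CCGGAAG, or CTTCCGG on the other strand), an E-box (CACGTG) or a CCAAT box (ATTGG on the other strand). The windows are chr4:45018359-45018658 on the plus strand for Polr1e, chr17:46247996-46248295 on the minus strand for Polr1c, chr13:81710964-81711263 on the minus strand for Polr3g and chr3:96594132-96594431 on the minus strand for Polr3gl.
Polr1e: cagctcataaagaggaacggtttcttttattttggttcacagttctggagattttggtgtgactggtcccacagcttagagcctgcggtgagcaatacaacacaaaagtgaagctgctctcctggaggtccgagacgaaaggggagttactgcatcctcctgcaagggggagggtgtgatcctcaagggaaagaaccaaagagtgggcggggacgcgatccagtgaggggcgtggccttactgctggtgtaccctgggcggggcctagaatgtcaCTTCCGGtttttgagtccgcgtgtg
Polr1c: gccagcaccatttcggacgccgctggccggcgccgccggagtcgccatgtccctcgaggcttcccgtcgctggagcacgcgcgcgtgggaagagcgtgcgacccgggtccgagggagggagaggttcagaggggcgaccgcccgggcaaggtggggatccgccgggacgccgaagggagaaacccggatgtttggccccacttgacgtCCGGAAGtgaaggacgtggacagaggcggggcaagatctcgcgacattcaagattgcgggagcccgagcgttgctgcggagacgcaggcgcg
Polr3g: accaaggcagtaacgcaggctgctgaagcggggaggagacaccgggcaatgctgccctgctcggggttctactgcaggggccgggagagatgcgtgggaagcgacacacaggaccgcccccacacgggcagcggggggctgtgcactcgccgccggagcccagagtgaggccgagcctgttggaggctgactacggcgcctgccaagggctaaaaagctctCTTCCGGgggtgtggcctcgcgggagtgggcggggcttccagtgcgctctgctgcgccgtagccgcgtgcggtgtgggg
Polr3gl: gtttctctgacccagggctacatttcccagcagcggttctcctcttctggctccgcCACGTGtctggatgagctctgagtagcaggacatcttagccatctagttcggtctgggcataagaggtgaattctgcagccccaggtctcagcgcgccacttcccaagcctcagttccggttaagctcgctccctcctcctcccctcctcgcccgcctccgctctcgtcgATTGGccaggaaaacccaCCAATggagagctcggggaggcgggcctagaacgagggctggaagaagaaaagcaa
Polr1e, Polr1c and Polr3g, all lower with TCC, each held 1 ETS core, and Polr3gl, called higher with TCC, held 1 E-box and 2 CCAAT boxes and no ETS core. The call of Polr3gl was just past the threshold (limma adjusted p = 0.0462) and was kept in 4 of the 20 other settings. In these 4 windows no match overlapped another. RefSeq promoters were at hand for 23 of the 29 genes. An ETS core was found in 8 of these 23 (Polr1c, Polr1e, Polr2c, Polr2f, Polr2j, Polr3b, Polr3g and Polrmt) and in 8.86% of all 32851 promoters. The NRF1 motif was found in 5, which were Polr2b, Polr2e, Polr2f, Polr2h and Polrmt, and in 4.60% of all promoters. The E-box was found in 4 (Polr2h, Polr3c, Polr3e and Polr3gl) and in 7.15% of all, the CCAAT box in 7 and in 37.4% of all, TATAAA in 3 and in 13.6% of all, and AAGATGGC, the YY1 core, in none of the 23 and in 2.75% of all. Subunit promoters had a median GC content of 59.3%, against 52.7% for all promoters, and the part of GC content in the motif counts was not tested. Genes with an ETS core were found among those called lower and among those not called (Polr2c, Polr2j and Polrmt). Other genes called lower had no ETS core in their promoter, among them Polr2b, Polr2e, Polr2h and Polr3e. The 4 windows shown were picked by their changes, and a link between motif and direction was not tested.

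All 3 subunits of Pol I alone were lower with TCC, beside 30.8% of all tested genes. Polr1a, the largest subunit, which forms the active centre, had 1.68, 1.96, 1.303 and 1.65 FPKM in TCC libraries 1 to 4, against 3.15, 3.68, 4.75 and 4.29 FPKM in control libraries 1 to 4. Its change was -0.90 ± 0.22 (SE, n = 4 per group, as for all changes given here; limma adjusted p = 0.00707), and with quantile normalization its adjusted p was 0.0953. Polr1b, the second-largest subunit, had 0.959, 0.971, 1.63 and 0.759 FPKM with TCC, against 6.11, 6.66, 10.1 and 12.6 FPKM in controls, a change of -2.21 ± 0.28 (limma adjusted p = 0.000157). Only 1 of the 4 TCC libraries reached 1 FPKM of Polr1b, whereas all controls were above 6 FPKM and carried it past the filter. Polr1e (ENSMUSG00000028318.8, chr4:45018583-45036565 on GRCm38), which pairs with the protein of Cd3eap in a dimer that helps the enzyme start and elongate, had 2.51, 0.222, 3.06 and 2.06 FPKM with TCC, against 13.3, 19.4, 40.8 and 27.2 FPKM in controls. Its change was -3.16 ± 0.43 (limma adjusted p = 0.00022), the largest fall of the 29 genes on the scale used, and TCC library 2 was the lowest of all. With a pseudocount of 5 it was -2.05, a smaller fall than the -2.46 of Polr1c. The log2(FPKM + 1) scale understates changes of genes near 1 FPKM, among them Polr1a and Polr1b.

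The other 3 Pol I subunits stand under older symbols. Cd3eap, the dimer partner of Polr1e, was listed at 0 in TCC library 1 and had 0.350, 0.275 and 0.184 FPKM in TCC libraries 2 to 4, against 3.50, 5.80, 16.0 and 12.5 FPKM in controls. It was called lower (change -2.94 ± 0.38, limma adjusted p = 0.000182). No TCC library reached 1 FPKM, so the gene passed the filter through the controls alone, where it was high, and had to differ. Znrd1, whose yeast counterpart takes part in RNA cleavage by the enzyme, had 22.7, 15.2, 21.1 and 15.01 FPKM with TCC, against 46.5, 73.8, 198 and 189 FPKM in controls, and was called lower (change -2.49 ± 0.44, limma adjusted p = 0.000999). Twistnb, part of the stalk that in yeast contacts the initiation factor Rrn3, had 19.9, 16.2, 14.6 and 19.4 FPKM with TCC and 15.3, 18.5, 32.6 and 26.5 FPKM in controls. Its groups overlapped and it did not pass (change -0.34 ± 0.28, 95% interval -0.96 to 0.28, limma adjusted p = 0.366), although it did with controls 1 and 2 left out (adjusted p = 0.0347). With these 3 genes, 5 of 6 Pol I subunits were called lower, Cd3eap among them.

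Polr1c and Polr1d encode the alpha-like pair on which both Pol I and Pol III assemble, and both were lower with TCC. Polr1c (ENSMUSG00000067148.8, chr17:46243920-46248054) had 11.7, 10.1, 11.3 and 11.4 FPKM in TCC libraries, against 63.6, 76.4, 90.0 and 110.1 FPKM in control libraries. The TCC values lay within a narrow band (mean 11.1 ± 0.691 FPKM, SD) well under every control (85.0 ± 19.9 FPKM), and the change was -2.80 ± 0.25 (limma adjusted p = 4.39e-05). That adjusted p was the smallest of the 29 genes. Polr1d had 60.8, 51.9, 82.8 and 81.6 FPKM with TCC, against 104.5, 129.4, 213.7 and 217 FPKM in controls (change -1.21 ± 0.31, limma adjusted p = 0.00826). Without controls 3 and 4 the adjusted p of Polr1d was 0.0706.

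The 5 small subunits that Pol I, II and III share were all lower, beside 30.8% of all tested genes, with a median change of -1.73. Polr2k, which in yeast helps hold the alpha-like subunits in place, had 13.2, 19.8, 11.8 and 13.3 FPKM with TCC, against 27.2, 47.0, 114.3 and 118.8 FPKM in controls (change -2.11 ± 0.44, limma adjusted p = 0.00268). Polr2h had 20.3, 21.8, 28.3 and 29.1 FPKM with TCC, against 42.7, 55.3, 176.7 and 150.0 FPKM in controls (change -1.82 ± 0.43, limma adjusted p = 0.00572). In both genes controls 3 and 4 were far above controls 1 and 2, and the TCC libraries were below all of them. Polr2e, which in yeast lies in the jaw that grips the incoming DNA, had 22.7, 11.8, 25.1 and 31.0 FPKM with TCC, against 62.9, 55.0, 94.8 and 88.6 FPKM in controls (change -1.73 ± 0.33, limma adjusted p = 0.00143). Polr2l had 27.2, 20.02, 31.8 and 39.5 FPKM with TCC, against 51.3, 76.7, 124.5 and 108.3 FPKM in controls (change -1.54 ± 0.33, limma adjusted p = 0.00304). Polr2f, which in yeast helps to anchor the stalk and was the most abundant of the 5, had 177.9, 150.6, 220.4 and 243.5 FPKM with TCC, against 309.8, 354.1, 412.7 and 474.9 FPKM in controls. It also had the smallest change of the 5, -0.97 ± 0.26 (limma adjusted p = 0.0106), and its adjusted p was 0.0704 after median-of-ratios scaling and 0.063 without controls 3 and 4. A pseudogene of Polr2k, Polr2k-ps, had at most 0.317 FPKM in any library, and how reads that match both were counted is not given in the sources used here.

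Of the 7 subunits of Pol II alone, 4 were lower (57.1%), 1 was higher and 2 did not pass. Across all tested genes, 30.8% were called lower and 11.3% higher. Polr2a, the largest subunit, whose long C-terminal repeat domain recruits RNA processing factors, had 1.13, 2.04, 1.47 and 2.14 FPKM with TCC, against 3.04, 4.00, 2.74 and 4.39 FPKM in controls (change -0.76 ± 0.24, limma adjusted p = 0.0252). The groups did not overlap but lay close, and the call was lost in several settings: the adjusted p was 0.0803 without TCC 1, 0.0719 without TCC 3, 0.0605 without control 2, 0.072 without control 4, 0.0565 without controls 3 and 4, 0.0547 without the filter, 0.098 with median-of-ratios scaling and 0.244 with quantile normalization. Polr2b, the second-largest subunit, had 9.196, 9.50, 9.86 and 7.87 FPKM with TCC, against 25.0, 22.0, 48.7 and 44.4 FPKM in controls (change -1.76 ± 0.30, limma adjusted p = 0.000798). Polr2i, which in yeast contributes to the accuracy of transcription, had 18.5, 11.5, 26.4 and 21.4 FPKM with TCC, against 31.1, 30.1, 65.0 and 55.9 FPKM in controls (change -1.16 ± 0.34, limma adjusted p = 0.0172). Without control 3 its adjusted p was 0.0544, without control 4 it was 0.0513, without both it was 0.16, and it was 0.0754 with median-of-ratios scaling and 0.056 with quantile normalization. Exons of Polr2i overlap those of Tbcb on the other strand over 325 bases, 26.8% of its exon length, and Tbcb was lower too (change -1.84, limma adjusted p = 0.00228). Without a stated strand setting, reads from that stretch cannot be told apart. The same holds for 245 exon bases (9.4%) of Polr2f, which 1700088E04Rik overlaps, and for at most 5.4% of the exon length of Polr1a, Polr2b, Polr2h, Polr3b, Polr3gl and Cd3eap.

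The stalk of Pol II is a dimer of the proteins of Polr2d and Polr2g, and their mRNAs moved in opposite directions. Polr2g (ENSMUSG00000071662.3, chr19:8793127-8798577) had 239.2, 158.7, 295.9 and 290.8 FPKM with TCC, against 91.6, 96.7, 68.6 and 85.2 FPKM in controls. All TCC libraries were above all controls, and the change was 1.48 ± 0.27 (limma adjusted p = 0.00123), the only rise of more than 1 among the 29 genes. Polr2d had 62.1, 35.3, 53.8 and 52.5 FPKM with TCC, against 123.2, 124.5, 244.4 and 230.6 FPKM in controls, a change of -1.76 ± 0.31 (limma adjusted p = 0.00105). Polr2g thus stood at 3.85 to 5.54 times the FPKM of Polr2d in the TCC libraries and at 0.281 to 0.777 times in the controls. The order of the pair was reversed in every library of one group relative to the other. Polr2g took 16.6 to 23.4% of the summed FPKM of the 7 Pol II subunits with TCC, against 5.15 to 6.43% in controls.

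The alpha-like pair of Pol II, Polr2c and Polr2j, was the most abundant of all subunits and neither gene passed the test. Polr2c had 744.6, 313.8, 807.4 and 832.7 FPKM with TCC, against 713.7, 624 and, in controls 3 and 4, 318.5 and 345 FPKM. TCC library 2 was apart from the other TCC libraries and controls 3 and 4 apart from controls 1 and 2, so the groups overlapped (change 0.42 ± 0.39, 95% interval -0.43 to 1.27, limma adjusted p = 0.415). Without controls 3 and 4 the change was -0.08. Polr2j had 363, 148.6, 421.9 and 415.9 FPKM with TCC, against 447.9, 625.8, 585.4 and 558.8 FPKM in controls. TCC library 2 was far below the others, and although the groups did not overlap the test did not pass (change -0.82 ± 0.35, 95% interval -1.57 to -0.06, limma adjusted p = 0.0778). Without TCC library 2 the change was -0.46 (adjusted p = 0.0953), and the gene passed as lower after quantile normalization (adjusted p = 0.0131) and after rescaling without mitochondrially encoded genes (adjusted p = 0.0393). Polr2c made up 46.2 to 51.8% of the summed Pol II subunit FPKM with TCC and 23.9 to 49.7% in controls, and Polr2j made up 21.9 to 26.1% with TCC and 31.2 to 43.9% in controls. Exons of Dok4 on the other strand cover 18.1% of those of Polr2c, and exons of Lrwd1 on the other strand cover 15.9% of those of Polr2j. Both neighbours were far less abundant, Dok4 at 12.2 to 19.9 FPKM with TCC and 11.7 to 32.7 FPKM in controls and Lrwd1 at 0.625 to 1.16 FPKM with TCC and 2.38 to 4.48 FPKM in controls.

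**Figure D2:**
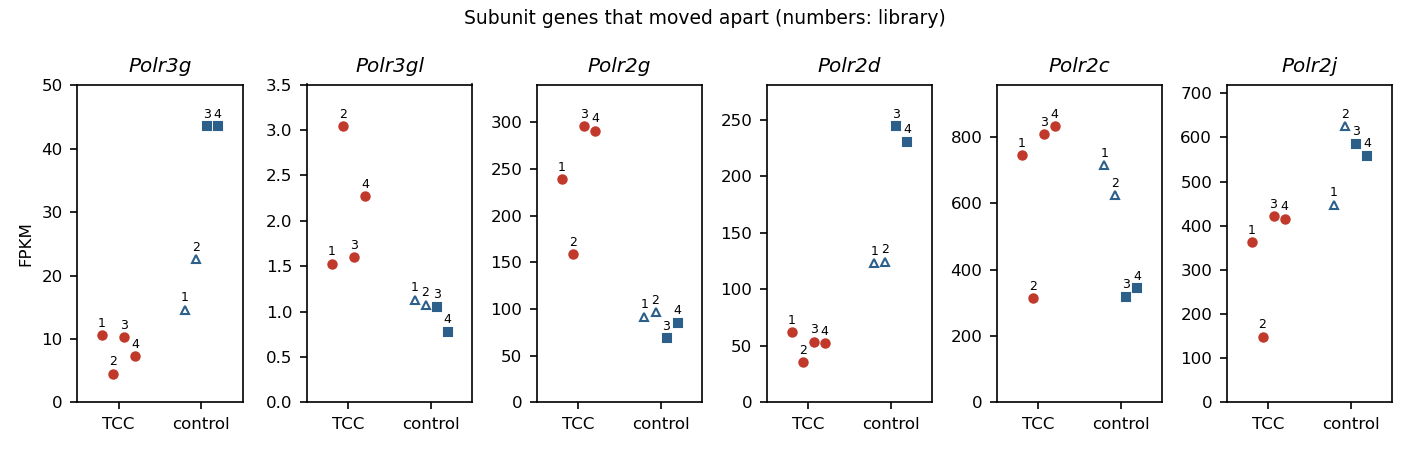
FPKM (linear axes starting at 0) of 6 subunit genes in the 4 TCC libraries (red circles, left) and the 4 control libraries (open triangles for 1 and 2, filled squares for 3 and 4, right), numbered by library. Polr3gl and Polr2g lie higher with TCC and their counterparts Polr3g and Polr2d lower, while Polr2c overlaps between the groups.

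Polr2m encodes a protein known as Gdown1, which binds tightly to a fraction of Pol II and keeps the initiation factor TFIIF from it. It had 4.37, 2.26, 4.18 and 2.60 FPKM with TCC, against 12.2, 8.94, 14.5 and 10.4 FPKM in controls. The groups did not overlap, and the change was -1.54 ± 0.27 (limma adjusted p = 0.00107).

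Of the 10 genes of Pol III alone, 6 were lower (60.0%), 1 was higher and 3 did not pass. The shares over all tested genes were 30.8% lower and 11.3% higher. The second-largest subunit, Polr3b, had 2.59, 2.24, 2.40 and 2.93 FPKM with TCC, against 6.31, 7.61, 17.0 and 13.7 FPKM in controls (change -1.69 ± 0.32, limma adjusted p = 0.0014). The largest subunit, Polr3a, had 10.5, 8.30, 7.83 and 8.14 FPKM with TCC, against 9.48, 10.3, 17.0 and 17.8 FPKM in controls. TCC library 1 lay above controls 1 and 2, so the groups overlapped (change -0.56 ± 0.28, 95% interval -1.16 to 0.05, limma adjusted p = 0.128). Without controls 1 and 2, the adjusted p of Polr3a was 0.0104.

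Polr3d and Polr3e encode a dimer that resembles the initiation factor TFIIF of Pol II. Polr3d had 4.34, 8.38, 3.31 and 3.38 FPKM with TCC, against 11.7, 12.9, 20.9 and 23.5 FPKM in controls (change -1.66 ± 0.34, limma adjusted p = 0.00224). Polr3e had 0.972, 0.826, 1.24 and 0.815 FPKM with TCC, against 3.65, 3.43, 6.80 and 7.73 FPKM in controls (change -1.65 ± 0.28, limma adjusted p = 0.00074). In both genes every TCC library was below every control, and Polr3e had the lowest TCC mean of the 29 genes. Only 1 TCC library reached 1 FPKM of Polr3e, so the controls carried it past the filter. Polr3k, which in yeast is needed for RNA cleavage and for termination, had 57.6, 45.3, 58.9 and 65.8 FPKM with TCC, against 91.4, 107.1, 166.8 and 131.7 FPKM in controls (change -1.09 ± 0.26, limma adjusted p = 0.00618). It was the most abundant gene of Pol III alone in both groups. Crcp, a stalk subunit, had 14.6, 6.47, 10.1 and 11.7 FPKM with TCC, against 14.4, 14.3, 41.9 and 29.7 FPKM in controls. It was called lower (change -1.06 ± 0.38, limma adjusted p = 0.0428) although TCC library 1 lay just above controls 1 and 2. The call was lost without TCC 2, 3 or 4 (adjusted p = 0.0961, 0.0864 and 0.0716), without control 3 or 4 (0.125 and 0.109), without both of these (0.356), without the filter (0.0962), with median-of-ratios scaling (0.141) and with quantile normalization (0.179).

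Polr3c, Polr3f and either Polr3g or Polr3gl form a trimer that recruits Pol III to its promoters, with Polr3g known from undifferentiated and tumour cells and Polr3gl from most differentiated tissues. These paralogues moved apart. Polr3g (ENSMUSG00000035834.5, chr13:81673843-81711013) had 10.6, 4.53, 10.2 and 7.27 FPKM with TCC, against 14.6, 22.6, 43.5 and 43.6 FPKM in controls (change -1.74 ± 0.39, limma adjusted p = 0.00409). Polr3gl (ENSMUSG00000028104.8, chr3:96577872-96594181) had 1.53, 3.04, 1.603 and 2.27 FPKM with TCC, against 1.13, 1.08, 1.05 and 0.778 FPKM in controls. Its change of 0.61 ± 0.22 was just past the threshold (limma adjusted p = 0.0462) and its levels were near the 1 FPKM of the filter. The groups did not overlap for either gene. For Polr3gl the call was kept in 4 of the 20 other settings, with adjusted p between 0.00707 and 0.16 across them. It was lost without TCC 2 (0.0728), TCC 3 (0.0579), TCC 4 (0.109), control 1 (0.0583), control 2 (0.0751), control 3 (0.0806) or control 4 (0.119). The FPKM of Polr3g was 6.92, 1.49, 6.39 and 3.20 times that of Polr3gl in TCC libraries 1 to 4, against 12.9, 21.0, 41.3 and 56.1 times in control libraries 1 to 4. Polr3g was the more abundant paralogue in every library.

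The other members of that trimer did not pass. Polr3c had 16.2, 11.6, 11.3 and 11.6 FPKM with TCC, against 17.2, 13.7, 16.5 and 11.4 FPKM in controls (change -0.20 ± 0.25, 95% interval -0.74 to 0.35, limma adjusted p = 0.562). Polr3f had 15.5, 13.2, 12.3 and 11.0 FPKM with TCC, against 7.37, 10.4, 12.7 and 8.93 FPKM in controls (change 0.38 ± 0.25, 95% interval -0.18 to 0.94, limma adjusted p = 0.252). The groups overlapped for both genes, and both intervals lay above -1, while the interval of Polr3g ran from -2.59 to -0.88. The change of Polr3c was positive with median-of-ratios scaling (0.09) and with quantile normalization (0.20), and Polr3f passed as higher after quantile normalization (adjusted p = 0.0251).

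Polrmt, which transcribes the mitochondrial genome, had 3.86, 1.38, 3.85 and 3.78 FPKM with TCC, against 3.81, 3.55, 11.1 and 9.65 FPKM in controls. Apart from TCC library 2, the TCC libraries were at the level of controls 1 and 2, and controls 3 and 4 stood above (change -0.85 ± 0.39, 95% interval -1.71 to 0.01, limma adjusted p = 0.103). It passed as lower when controls 1 and 2 were left out (adjusted p = 0.00759). The genes of the mitochondrial genome itself made up 11.1, 17.6, 13.7 and 13.1% of all FPKM in TCC libraries 1 to 4 and 16.6, 17.6, 22.6 and 24.3% in control libraries 1 to 4. Controls 3 and 4, in which Polrmt was high, had the larger mitochondrial shares among the controls. Among the TCC libraries the order was the opposite. Library 2 had the lowest Polrmt and the largest share, and library 1 the highest Polrmt and the smallest share. The part of these shares in the level of Polrmt was not tested.

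**Figure D3:**
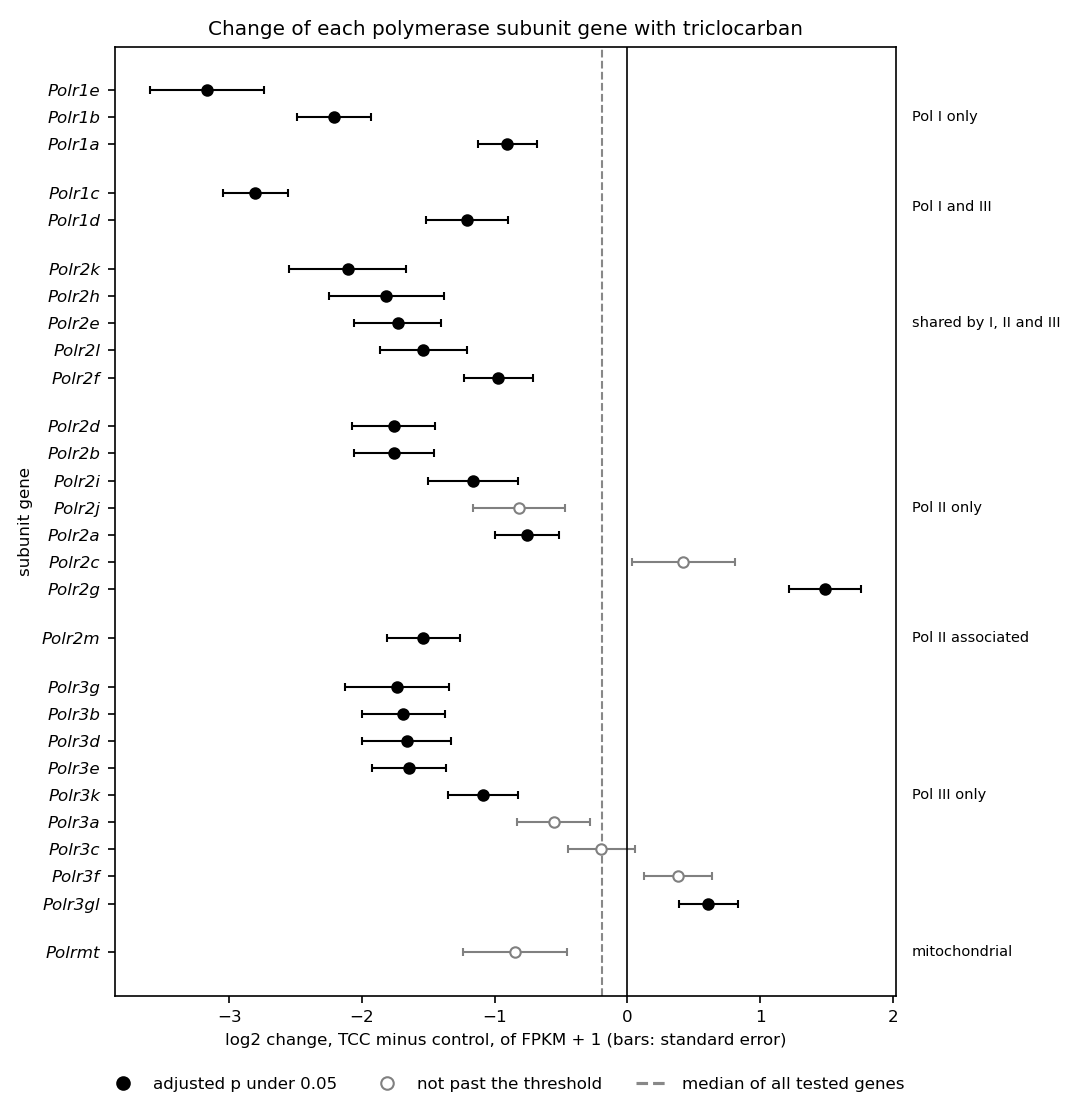
Change of 28 subunit genes (TCC minus control, log2 of FPKM + 1) with its standard error (n = 4 per group), grouped by enzyme and sorted within it, where filled points passed an adjusted p of 0.05 (limma) and open points did not. The dashed line is the median of all tested genes, -0.19, and 20 filled points lie left of it and 2 right of 0.

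The levels of each class of subunits, averaged within a library, are set side by side as a description. The mean log2(FPKM + 1) of the 3 genes of Pol I alone was 1.29 ± 0.25 in TCC libraries and 3.38 ± 0.42 in control libraries (SD, n = 4), a difference of -2.09. For the pair shared by Pol I and III it was 4.85 ± 0.19 with TCC and 6.86 ± 0.42 in controls, a difference of -2.01. For the 5 subunits common to all enzymes it was 5.12 ± 0.24 with TCC and 6.75 ± 0.63 in controls, a difference of -1.63. These classes were separated from their controls in all libraries, with Pol I genes at 0.94 to 1.54 with TCC and 2.91 to 3.79 in controls. The 10 genes of Pol III alone averaged 2.92 ± 0.08 with TCC and 3.84 ± 0.34 in controls (difference -0.92), and the 7 genes of Pol II alone 5.74 ± 0.35 with TCC and 6.37 ± 0.14 in controls (difference -0.62). All tested genes averaged 3.16 ± 0.07 with TCC and 3.49 ± 0.07 in controls, a difference of -0.33. In all 5 classes the 4 TCC libraries lay below the 4 controls, which was also so for the mean of all tested genes (3.06 to 3.23 with TCC and 3.41 to 3.55 in controls). The differences between classes were not tested, since each class is a handful of genes of which 1 or 2 can set the mean. The value of Pol I alone was -1.22 with a pseudocount of 5, that of Pol II alone was -0.33 after median-of-ratios scaling, and that of Pol III alone was -0.55 after quantile normalization.

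**Figure D4:**
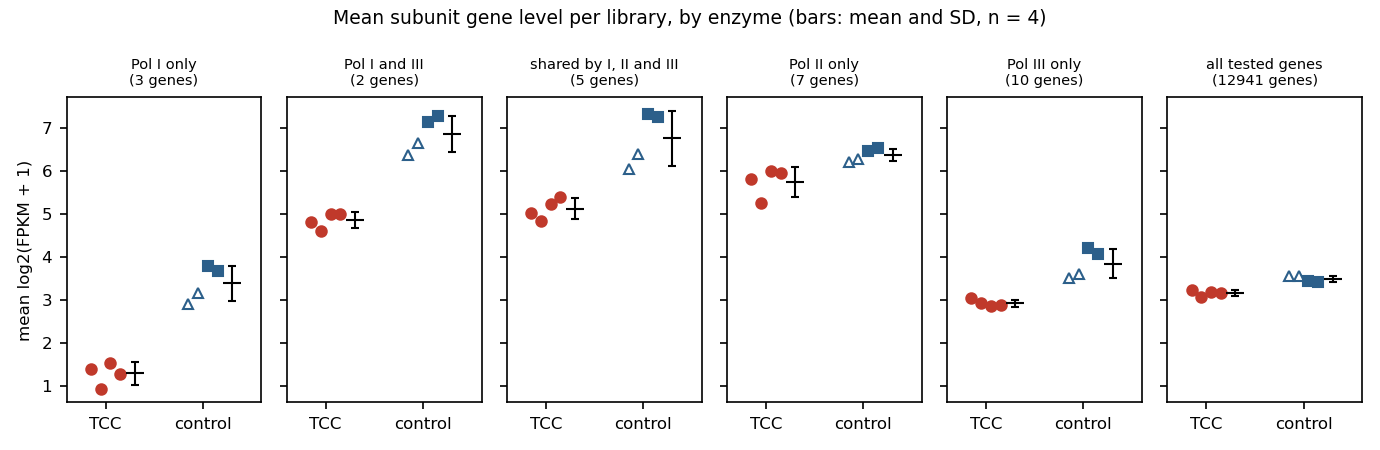
Mean log2(FPKM + 1) over the subunit genes of each class, 1 symbol per library (red circles TCC, open triangles controls 1 and 2, filled squares controls 3 and 4), with black bars for mean and SD (n = 4). The gap between TCC and control is wide for Pol I, for the pair shared with Pol III and for the common subunits, and narrower for Pol II alone and Pol III alone.

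Subunits of the same enzyme differed widely in FPKM, a level given per length. Whether levels of different genes compare in these libraries was not tested. In TCC embryos the highest means were those of Polr2c (674.6 ± 243.4 FPKM, SD), Polr2j (337.4 ± 128.6), Polr2g (246.1 ± 63.7) and Polr2f (198.1 ± 41.7). In controls they were those of Polr2j (554.5 ± 76.2 FPKM), Polr2c (500.3 ± 198.3), Polr2f (387.9 ± 71.7) and Polr2d (180.7 ± 65.9). The range of each of these genes over its libraries overlapped with that of the next in its order, except Polr2d, which was below Polr2f in all controls. Read within a library, Polr2c was above Polr2j and Polr2g above Polr2f in every TCC library. The order of the other neighbours differed between libraries of a group. The largest subunits were among the least abundant, with Polr1a at 1.65 ± 0.268 FPKM with TCC and 3.97 ± 0.701 FPKM in controls, and Polr2a at 1.70 ± 0.477 FPKM with TCC and 3.54 ± 0.778 FPKM in controls. Their exons are among the longest of the subunits, 11871 bases for Polr1a and 7067 bases for Polr2a, and the part of length in these levels was not tested. Polr3a, with 5828 exon bases, was higher than both, at 8.68 ± 1.20 FPKM with TCC and 13.7 ± 4.35 FPKM in controls. Polr3f, with 7710 exon bases, was also higher than both, at 12.99 ± 1.93 FPKM with TCC and 9.84 ± 2.255 FPKM in controls.

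Factors that work with the polymerases were read from 6 lists of 94 genes, of which 90 were tested. In these lists 48 genes were lower, 5 were higher and 37 did not pass, with a median change of -0.90. That share of lower genes, 53.3%, was above the 30.8% of all tested genes, of which 11.3% were higher, but it varied between lists. The lists were chosen with earlier results of these data known, so their shares are a description and not independent support. All 8 tested genes of the Pol I list were lower (median -1.68). That list holds initiation and termination factors and also Tcof1 and Nolc1. Ubtf, which keeps ribosomal DNA open for Pol I, had 2.11, 0.747, 2.64 and 1.84 FPKM with TCC, against 10.0, 11.0, 21.2 and 19.3 FPKM in controls (change -2.51 ± 0.33, limma adjusted p = 0.00019). Taf1d, a subunit of the promoter selectivity factor SL1, had a change of -2.07 ± 0.31 (limma adjusted p = 0.000394), and Ttf1, which stops Pol I at the end of the ribosomal gene, one of -2.47 ± 0.41 (limma adjusted p = 0.000669). For none of these 8 genes did a TCC library reach the level of any control. Taf1c, another SL1 subunit, was under the filter, with at most 0.346 FPKM in TCC libraries and 0.0721 to 1.38 FPKM in controls, and Taf1a was not analysed here.

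Among 16 tested initiation factors and regulators of Pol III, 12 were lower (75.0%), 1 was higher and 3 did not pass (median -1.34). Over all tested genes, 30.8% were lower and 11.3% higher. Gtf3c6 had 6.51, 2.89, 6.39 and 3.84 FPKM with TCC, against 32.6, 48.4, 88.1 and 106.1 FPKM in controls (change -3.47 ± 0.39, limma adjusted p = 9.06e-05). Gtf3c6 and Gtf3c5 (change -2.83 ± 0.33, limma adjusted p = 0.000103) encode subunits of TFIIIC, which recognises the promoters inside transfer RNA genes. Snapc2, of the complex that binds promoters of small nuclear RNA genes for both Pol II and Pol III, had 11.2, 5.87, 15.8 and 9.82 FPKM with TCC, against 84.4, 77.8, 95.8 and 100.2 FPKM in controls (change -3.02 ± 0.29, limma adjusted p = 5.21e-05). The 1 higher gene, named after its value was seen, was Ssb, the La protein that binds the ends of new Pol III transcripts, at 261.4 to 321.7 FPKM with TCC and 163.2 to 175.2 FPKM in controls (change 0.80 ± 0.22, limma adjusted p = 0.0118). Gtf3c2 was not analysed here.

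Of 17 genes for polymerase assembly and nuclear import, 10 were lower (58.8%), 1 was higher and 6 did not pass (median -0.95). Over all tested genes, 30.8% were lower and 11.3% higher. Gpn3, a GTPase needed for Pol II to reach the nucleus, had 5.39, 10.3, 5.94 and 7.26 FPKM with TCC, against 36.5, 43.2, 69.3 and 59.0 FPKM in controls (change -2.68 ± 0.29, limma adjusted p = 7.93e-05). Pdrg1, of a prefoldin-like chaperone complex, changed by -2.40 ± 0.30 (limma adjusted p = 0.000141), and Tti2, a cochaperone of Hsp90 that serves large kinases, by -1.56 ± 0.21 (limma adjusted p = 0.000226). Tti2 had 0.173 to 0.707 FPKM with TCC and 2.72 to 3.95 FPKM in controls, so it passed the filter through the controls alone. Wdr92, named after its value was seen, was the higher gene (change 1.41 ± 0.43, limma adjusted p = 0.0204), with 9.32 FPKM in TCC library 2, within the 6.33 to 11.3 FPKM of the controls, and 33.3 to 45.8 FPKM in the other TCC libraries. Of 19 elongation factors 9 were lower (47.4%) and 1 was higher (median -0.45), with Nelfe at -2.57 ± 0.29 and Nelfb at -2.02 ± 0.28, both of the complex that holds Pol II near promoters, and the elongation factor Paf1 at -2.002 ± 0.27 (limma adjusted p = 9.45e-05, 0.000249 and 0.000201). Supt16, of the histone chaperone FACT, was the higher gene (change 0.81 ± 0.23, limma adjusted p = 0.0149), also named after its value was seen. Of 20 kinases, phosphatases and readers of the C-terminal domain of Polr2a, 5 were lower, none was higher and 15 did not pass (median -0.31). Their share of lower genes, 25.0%, was near the 30.8% of all tested genes. The 3 with the smallest adjusted p were Rprd1b (change -2.36 ± 0.33), which binds the domain, Cdk9 (-2.16 ± 0.32), the kinase that releases paused Pol II, and Rprd2 (-1.63 ± 0.26), with limma adjusted p of 0.000268, 0.000365 and 0.000526.

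Beside Polrmt, 10 tested genes of mitochondrial transcription and replication gave 4 lower, 2 higher and 4 that did not pass (median -0.53). The 40.0% called lower was near the 30.8% of all tested genes. Polg2, the accessory subunit of the mitochondrial DNA polymerase, had 1.17, 0.433, 0.494 and 0.591 FPKM with TCC, against 4.99, 6.45, 5.48 and 10.2 FPKM in controls (change -2.19 ± 0.27, limma adjusted p = 0.000137). With TCC only library 1 reached 1 FPKM of Polg2, so the controls carried it past the filter. Twnk, the helicase that unwinds mitochondrial DNA, changed by -1.603 ± 0.24 (limma adjusted p = 0.000412). The 2 higher genes are known to act on the mitochondrial ribosome. Mterf4, which takes part in its assembly, had 37.1, 17.0, 23.1 and 21.6 FPKM with TCC, against 4.35, 7.32, 2.003 and 2.76 FPKM in controls (change 2.38 ± 0.36, limma adjusted p = 0.000388). Tfb1m, which methylates the small ribosomal RNA, changed by 1.54 ± 0.27 (limma adjusted p = 0.00106) and was named after its value was seen.

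**Figure D5:**
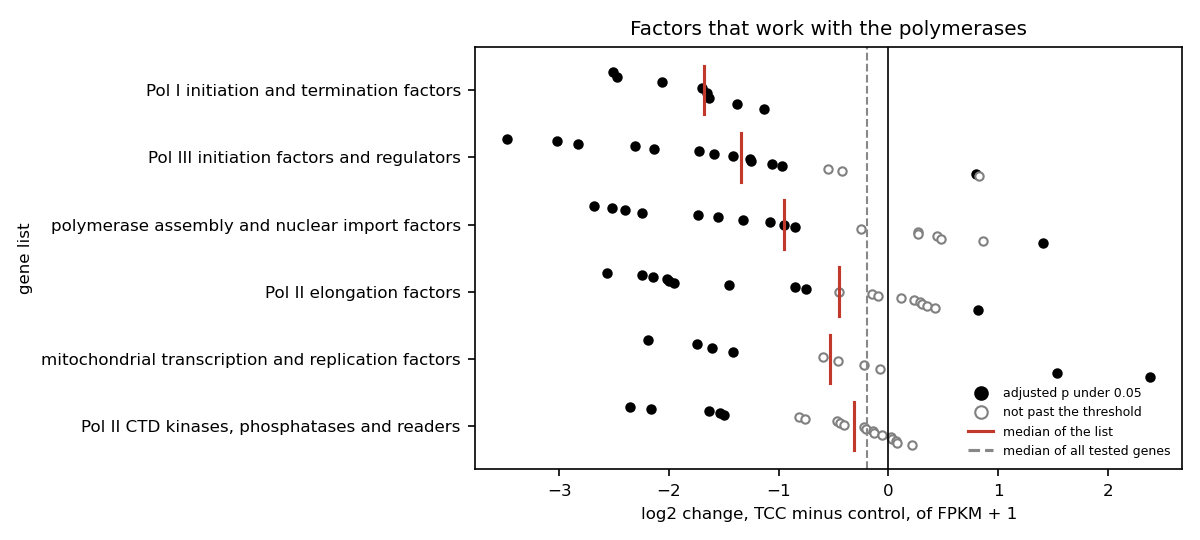
Change (TCC minus control, log2 of FPKM + 1) of each tested gene of 6 lists of factors that work with the polymerases, where filled points passed an adjusted p of 0.05 (limma), open points did not, red bars are list medians and the dashed line is the median of all tested genes. All 8 points of the Pol I list lie left of -1, and 15 of the 20 points of the C-terminal domain list are open.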

How the data were processed

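Poly(A) RNA of mouse 2-cell embryos was sequenced in 4 TCC and 4 control libraries with paired 150-base reads. The labels' protocols describe both a kit for total RNA and 16 to 18 cycles of cDNA amplification without saying which served here. The FPKM values were deposited by the authors as 1 table. The submitters' processing notes list the build mm10 and the tools featureCounts, StringTie, STAR and DESeq2 1.30.1 without their roles. The sources used here give neither the tool behind the FPKM nor the strand setting. Whole reads could not be recovered from low values (the commonest ratio between libraries was shared by 0.163 to 0.507% of low genes), so depth is unknown, and no count test was run.

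Symbols and coordinates come from GENCODE M21 (GRCm38, the assembly of mm10), where 32620 identifiers (87.4%) had an entry, 38.3% of them in the same version. The 12941 genes that reached 1 FPKM in 4 or more of the 8 libraries were tested with limma 3.58.1 (lmFit, eBayes with trend) in R 4.3.3 on log2(FPKM + 1), with treatment as the only term, 6 residual degrees of freedom and Benjamini-Hochberg adjustment at 0.05. The step was tested on simulated data. Their noise was drawn independently for each gene and library, without the split between controls 1 and 2 and controls 3 and 4. The simulation therefore does not bear on that split. Python 3.11.15 with pandas 2.3.3 and numpy 2.4.6 served for the tables. Subunit genes, lists and alternatives were chosen with earlier results of these data known. Every subunit is named except 1, which counts in all totals and is not reported here by itself; of each other list, up to 3 genes with the smallest adjusted p past the threshold. Promoters are from RefSeq (GRCm38.p6). Alternatives were other pseudocounts (0.1, 5), filters and scalings, library weights, eBayes without trend, a replicate block, a minimum change of 1, and leaving out libraries singly or in pairs of controls. No pair of libraries was identical. The replicate numbers of the titles were not taken as pairs.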

Additional observations from a re-analysis of the deposited data

Results flagged for a closer look

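In each group of 4 libraries, a library whose gap to the nearest other, as a share of the group's range, exceeded Dixon's 95% critical value was looked at again, for 66 groups of subunit values, and chance gives about 1 in 20 such groups. In 3 groups a TCC library stood apart. Polr2c had 313.8 FPKM in TCC library 2, against 744.6 to 832.7 FPKM in the other TCC libraries (gap 0.83 of the range). Polrmt had 1.378 FPKM in TCC library 2, against 3.781 to 3.859 FPKM in the others (0.969). Polr3c had 16.17 FPKM in TCC library 1, against 11.31 to 11.6 FPKM in the others (0.94). None of these 3 genes was called changed. No technical measure that moves with these values was tested.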

How the results depend on the processing

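Across 21 other settings, the number of subunit genes called lower was 17 to 23 (21 as reported, 19 to 21 with 1 library left out). Over 687 combinations of a subunit and a setting, 630 kept direction and side of the threshold, 45 lost the call, 7 gained it and 5 turned in sign, none of these 5 past the threshold: Twistnb was 0.018 after quantile normalization and 0.048 without controls 3 and 4, Polr2c was -0.084 without controls 3 and 4, and Polr3c was 0.089 with median-of-ratios scaling and 0.199 with quantile normalization. The number called higher, 2, was 1 with a pseudocount of 0.1, no filter, the stricter filter, rescaling without mitochondrial genes, the replicate block, library weights, no trend, without controls 1 and 2, without controls 3 and 4, and with a minimum change of 1, and 1 to 2 with 1 library left out. In these Polr3gl dropped out.

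Over all genes, 2492 were lower with the stricter filter (3981 as reported; 3469 to 4180 with 1 library left out). The number higher, 1466, was 2637 with median-of-ratios scaling, 2803 after quantile normalization, 2838 without controls 1 and 2, 695 without controls 3 and 4 and 953 to 1860 with 1 library left out. Related factors called higher, 5, were 8 after quantile normalization, 9 without controls 1 and 2, 3 without controls 3 and 4 and 3 with the minimum change.

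The class difference of Pol I alone was -2.68 and -1.22 with pseudocounts of 0.1 and 5 and -1.72 after quantile normalization. That of Pol III alone was -0.66 with the pseudocount of 5, -0.66 with median-of-ratios scaling and -0.55 with quantile normalization, and that of Pol II alone -0.33 after median-of-ratios scaling. Without controls 1 and 2 and without controls 3 and 4, the differences were -2.35 and -1.66 for Pol I and III, -2.17 and -1.10 for the common subunits, and -1.21 and -0.63 for Pol III alone. The cause of these differences was not tested. Deviations of libraries with the same replicate number correlated by 0.338, 0.053, 0.095 and 0.104. TCC 1, 3 and 4 correlated best with the control of the same number, and TCC 2 with control 4 (0.082). These correlations do not settle whether the libraries were paired. The labels do not say that they were, so the numbers were not taken as pairs. With the replicate block 22 subunit genes were lower, Polrmt passed (adjusted p = 0.045) and Polr3gl did not (0.0642). The depth is unknown, so levels under 1 FPKM carry a counting error that cannot be stated.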
